A study of Saccharomyces cerevisiae with 12 samples.

Results

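The genes described here encode the yeast cap-binding machinery and its helicases, 10 of the 6697 genes in the count table, and they were taken by systematic name, with no threshold on a measured value. They are DED1 (YOR204W) and DBP1 (YPL119C), TIF1 (YKR059W) and TIF2 (YJL138C) for eIF4A, CDC33 (YOL139C) for eIF4E, TIF4631 (YGR162W) and TIF4632 (YGL049C) for eIF4G, TIF3 (YPR163C) for eIF4B, and the eIF4E-binding proteins CAF20 (YOR276W) and EAP1 (YKL204W). All 10 were found in the table and all 10 passed the filter on low counts. The 10 genes and the gene lists further below were chosen with earlier results of these data known. The counts are of ribosome footprints, RNA fragments shielded from nuclease by ribosomes, in 12 libraries from Saccharomyces cerevisiae W303 Ade+. Both strains carried Ded1 fused to the red fluorescent protein mCherry, as Ded1-mCherry in the strain called WT and as Ded1_IDRm-mCherry in the strain called IDRm. WT is therefore a tagged strain and not an untagged one, and the sources used here do not say how many clones each strain stands for. Cultures grown at 30 °C spent 10 min at 30, 40 or 42 °C. Strain and temperature define 6 groups, each of 2 libraries from duplicate pre-cultures. The library totals ran from 3429950 to 7851819 counts, of which the 10 genes held 8609 to 33616.

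Initiation on a capped mRNA begins when eIF4E binds the cap and the scaffold eIF4G binds eIF4E, eIF4A and the poly(A)-binding protein. eIF4A, a DEAD-box ATPase helped by eIF4B, opens structure near the cap, and the scanning preinitiation complex then moves to the start codon. Ded1 is another DEAD-box helicase that lets this complex pass structured leaders, and Dbp1 is its paralog, able to take over part of its work when made in excess. Caf20 and Eap1 compete with eIF4G for eIF4E. On strong heat shock Ded1 gathers in condensates, and translation of many housekeeping mRNAs drops while that of chaperone mRNAs rises.

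The paralogs differ in how well footprints can be told apart, and the sequences are shown for that reason, with coordinates on build R64. TIF1 (chrXI:554987-556174, forward strand) and TIF2 (chrX:153504-154691, reverse strand) are each 1188 coding bases long and differ at 6 of them. Of the 1161 stretches of 28 bases in either gene, 106 were unique in the genome, searched on both strands. The other 90.9% could not be assigned to 1 gene. The 90 coding bases with the most differences are those from base 139 to base 228, at chrXI:555125-555214 and chrX:154464-154553, with the differing bases in capitals:
TIF1: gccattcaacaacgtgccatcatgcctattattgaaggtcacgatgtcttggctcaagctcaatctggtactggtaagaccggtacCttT
TIF2: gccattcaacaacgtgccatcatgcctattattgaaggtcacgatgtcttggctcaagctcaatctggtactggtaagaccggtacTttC
DED1 (chrXV:722911-724725, forward, 1815 bases) and DBP1 (chrXVI:324411-326264, reverse, 1854 bases) shared 71% of 1772 aligned coding bases and not 1 stretch of 28 bases. The 72 bases around the codons of the DEAD motif, at chrXV:723796-723867 in DED1 and chrXVI:325272-325343 in DBP1, differ at 14 positions, again in capitals:
DED1: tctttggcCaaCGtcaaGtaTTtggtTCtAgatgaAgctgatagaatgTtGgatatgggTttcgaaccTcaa
DBP1: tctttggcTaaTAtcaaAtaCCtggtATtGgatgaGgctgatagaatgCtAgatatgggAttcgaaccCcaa
The eIF4G genes TIF4631 (chrVII:824059-826917, forward) and TIF4632 (chrVII:406860-409604, reverse) matched at 67.7% of aligned bases, also with 0 shared stretches. CDC33 (chrXV:60383-61024, reverse), CAF20 (chrXV:841333-841818, forward) and EAP1 (chrXI:53704-55602, forward) had no repeated stretch. In TIF3 (chrXVI:868645-869955, reverse) 6.54% of stretches were repeated, all within TIF3 itself. Each gene has 1 coding exon, and the annotation places 0 other genes over any of them. The values of TIF1 and TIF2 are thus uncertain one by one, and their sum is given beside them.

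Levels are in CPM, the gene's counts as parts per 1000000 of the scaled library. No spike-in was recorded, so a level is a share of all footprints in its library. No matched RNA was analysed here, and less mRNA and fewer ribosomes per mRNA cannot be told apart. A gene was called where edgeR's quasi-likelihood test, fitted on 5719 genes with Benjamini-Hochberg adjustment over all of these, gave an adjusted p of at most 0.05. Errors after ± are the SD of 2 libraries for levels and the standard error for log2 changes. In WT the 10 genes together held 4077 ± 15.1 CPM at 30 °C, 2542 ± 41.7 at 40 °C and 3363 ± 163 at 42 °C. In IDRm the sum was 4319 ± 143 CPM, 2125 ± 23.6 CPM and 2974 ± 24.4 CPM in the same order. The sum was thus lowest at 40 °C in both strains and intermediate at 42 °C, with no overlap between the libraries of different temperatures within a strain. The libraries at 40 and 42 °C come from separate exposures of 10 min. HSP104, a heat-induced chaperone, was higher at 40 than at 42 °C, at 29270 and 28180 against 12910 and 12890 CPM in WT. In IDRm it was at 31150 and 33320 against 17410 and 17650 CPM. Its part in the levels of the 10 genes was not tested.

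**Figure D1:**
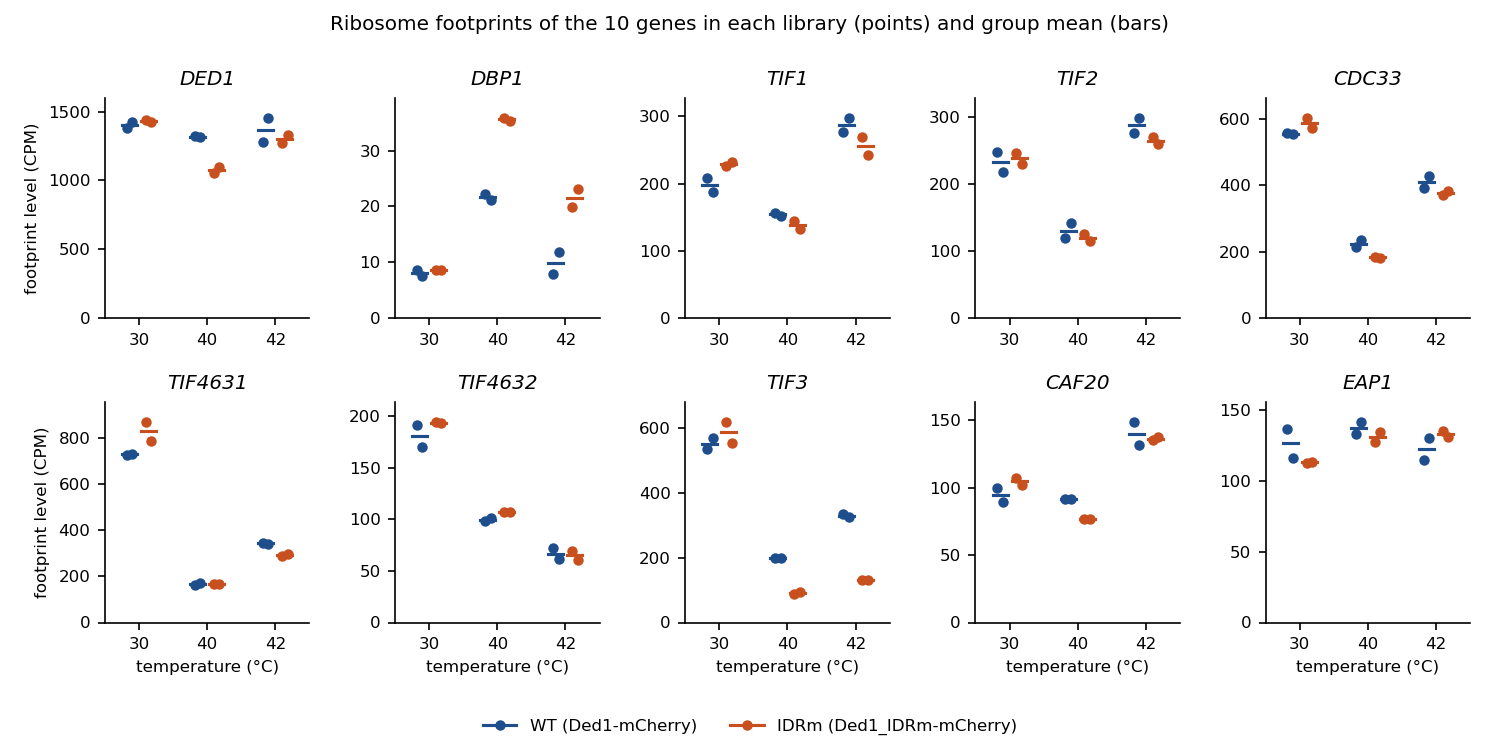
Footprint level in CPM (vertical axes, from 0, on a scale for each gene) against temperature for the 10 genes, with 1 point per library and a bar at the mean of the 2 libraries. DED1 stays between 1052 and 1457 CPM while TIF4631 drops from at least 725 to at most 173 CPM at 40 °C, and in TIF3 the heated strains separate.

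Per kilobase of coding length, the scale on which genes with unique footprints can be compared, eIF4E and Ded1 led at 30 °C in WT. CDC33 had 864 ± 0.761 CPM per kilobase and DED1 773.4 ± 17.9. TIF3 followed with 420.4 ± 17.5 and TIF4631 with 254.4 ± 1.19. TIF2 at 196 ± 17.5, CAF20 at 194.7 ± 14.8 and TIF1 at 166.1 ± 12.5 came next, of which TIF2 and CAF20 overlapped. The places of TIF1 and TIF2 are uncertain, since reads shared by the pair may have been left out of the counts. The order of eIF4A against the other factors is therefore not known. EAP1 at 66.56 ± 7.74 and TIF4632 at 65.7 ± 5.56 overlapped too, and DBP1 was last with 4.37 ± 0.405. Heating changed this order. At 40 °C in WT DED1 led with 725.6 ± 2.29 CPM per kilobase, CDC33 had 349.1 ± 25.2 and CAF20, at 188 ± 0.156, stood above TIF3 at 151.3 ± 1.07. TIF4631, at 58.61 ± 2.6, was then below EAP1 at 72.26 ± 3.29. In IDRm at 40 °C DED1 had 592.3 ± 17.8, CDC33 285.8 ± 2.99, CAF20 157.6 ± 0.565 and TIF3 only 69.53 ± 2.59, which overlapped EAP1 at 68.92 ± 2.6.

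The change from 30 to 40 °C in WT was called lower for 6 of the 10 genes and higher for 1, where 39.5% of all tested genes were called lower and 36.1% higher. The median log2 change was −0.60 over the 10 genes and −0.02 over all genes. From 30 to 42 °C in WT 4 were lower and 3 higher, beside 33.6% lower and 30.0% higher among all genes. From 40 to 42 °C in WT 6 were higher and 2 lower, beside 29.8% higher and 29.4% lower. In IDRm, all 10 were called from 30 to 40 °C, 8 lower and 2 higher, beside 39.9% lower and 37.4% higher, with a median of −0.79 for the 10 and 0.01 for all genes. From 30 to 42 °C in IDRm 4 were lower and 3 higher (36.7% and 36.8% of all genes), and from 40 to 42 °C 7 were higher and 2 lower (27.3% and 27.0%). The share lower at 40 °C, 6 and 8 of 10, was above that of all genes, as was the share higher from 40 to 42 °C, 6 and 7 of 10. From 30 to 42 °C the shares were close to those of all genes. TIF1 and TIF2 count separately in these tallies, though most of their footprints cannot be told apart. With the pair summed into 1 row there were 9 rows. Of these, 6 in WT and 9 in IDRm were called from 30 to 40 °C in either direction. Among all genes 39.5% were lower and 36.1% higher in WT, and 39.9% and 37.4% in IDRm. From 40 to 42 °C 7 and 8 rows were called, beside 29.8% higher and 29.4% lower in WT, and 27.3% and 27.0% in IDRm. The summed counts join both directions, so they do not test the shares lower or higher given above. These comparisons share their 30 °C libraries within a strain, so they are not independent of each other.

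**Figure D2:**
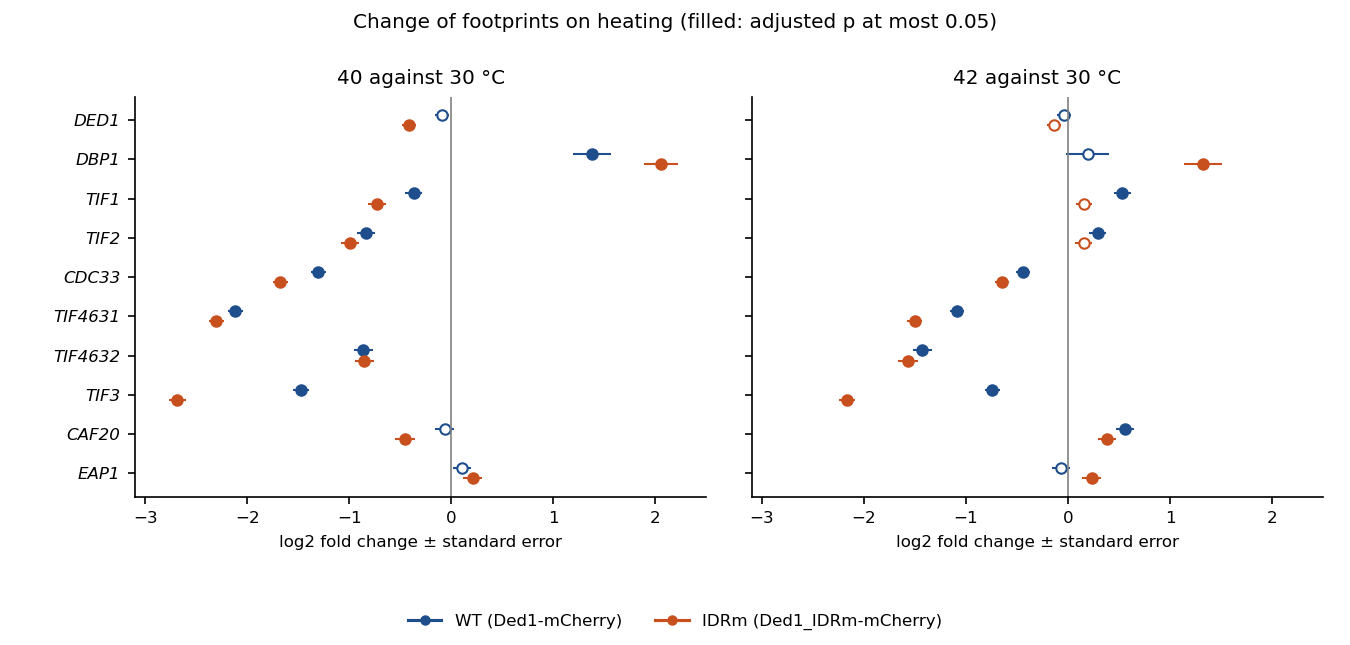
Log2 fold change of each gene (rows) from 30 to 40 °C (left) and from 30 to 42 °C (right) in both strains, with bars of 1 standard error and filled points at an adjusted p of at most 0.05. TIF3 shows the widest gap between the strains, at −1.47 and −2.69 for 40 °C and −0.74 and −2.17 for 42 °C.

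Ded1 footprints held nearly level on heating in WT, whereas those of its paralog Dbp1 rose at 40 °C in both strains. DED1 was at 1381 and 1427 CPM in the WT libraries at 30 °C, 1320 and 1314 at 40 °C, then 1280 and 1457 at 42 °C. The log2 change to 40 °C was −0.09 ± 0.07 (adjusted p = 0.22) and to 42 °C −0.04 ± 0.07 (adjusted p = 0.648), neither past the threshold. That reading rests on the scaling: by library size alone, which moves the median gene by −0.24, DED1 changed by −0.34 at 40 °C (adjusted p = 3.33e-06). In IDRm DED1 was at 1436 and 1426 CPM at 30 °C, 1052 and 1098 at 40 °C, then 1272 and 1331 at 42 °C. It fell by 0.41 ± 0.07 on the log2 scale at 40 °C (adjusted p = 2.09e-06), and both libraries lay below every other DED1 value in the series. From 40 to 42 °C in IDRm it rose by 0.28 ± 0.07 (adjusted p = 0.000945), a call that DESeq2's Wald test did not make (adjusted p = 0.0705). At 42 °C in IDRm the change was −0.14 ± 0.07 (adjusted p = 0.0686), and 5 other settings called it, with adjusted p from 0.0144 to 0.0484. The count table lists both alleles under the same gene name, so DED1 counts cannot show which one a library came from. Whether footprints of both alleles aligned equally well to the reference was not tested, and this bears on the strain comparisons of DED1.

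DBP1 had the lowest level per kilobase of the 10 genes in every group, with 28 to 147 counts per library. In WT it was at 8.63 and 7.57 CPM at 30 °C, 22.3 and 21.1 at 40 °C, then 7.84 and 11.9 at 42 °C. In IDRm it was at 8.53 and 8.56 CPM at 30 °C, 35.9 and 35.3 at 40 °C, then 19.9 and 23.1 at 42 °C. The groups at 40 °C lay above those at 30 °C in both strains, and at 42 °C only the IDRm libraries were clear of 30 °C. WT rose 2.61-fold at 40 °C (log2 1.38 ± 0.19, adjusted p = 6.7e-08), with 0.19 ± 0.21 at 42 °C (adjusted p = 0.43). IDRm rose by 2.06 ± 0.17 at 40 °C (adjusted p = 1.17e-12) and by 1.32 ± 0.19 at 42 °C (adjusted p = 1.66e-07). Between 40 and 42 °C it fell in both strains, by 1.19 ± 0.18 in WT (adjusted p = 1.46e-06) and by 0.73 ± 0.15 in IDRm (adjusted p = 0.000113). As a share of the summed CPM per kilobase of both helicases, DBP1 was 0.608% and 0.517% in WT at 30 °C, and 1.62% and 1.55% at 40 °C. In IDRm its share reached 3.24% and 3.06% at 40 °C, so DED1 remained the bulk of the pair in every library.

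eIF4E and the more abundant eIF4G both fell at 40 °C and stood higher at 42 than at 40 °C. CDC33, the cap-binding subunit, was at 555 and 554.4 CPM in WT at 30 °C, 212.7 and 235.6 at 40 °C, then 392.6 and 425.9 at 42 °C. The 3 temperatures did not overlap. Its log2 change was −1.30 ± 0.07 at 40 °C (adjusted p = 6.81e-17) and −0.44 at 42 °C (adjusted p = 1.96e-06). In IDRm CDC33 was at 602.9 and 570.8 CPM, then 184.8 and 182.1, then 368.6 and 381, with changes of −1.68 (adjusted p = 8.77e-20) and −0.65 (adjusted p = 9.86e-10). Between 40 and 42 °C CDC33 rose by 0.86 in WT (adjusted p = 6.02e-12) and by 1.03 in IDRm (adjusted p = 2.14e-13).

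TIF4631 had the largest fall of the 10 genes at 40 °C in WT. It was at 725 and 729.9 CPM at 30 °C, 162.3 and 172.8 at 40 °C, then 344.6 and 339.6 at 42 °C, a change of −2.12 ± 0.07 (adjusted p = 1.85e-22) and then of −1.09 (adjusted p = 3.83e-15) against 30 °C. In IDRm it was at 868 and 787.2 CPM at 30 °C, 166.8 and 168.2 at 40 °C, then 287.3 and 296 at 42 °C. The changes there were −2.30 (adjusted p = 1.15e-23) and −1.50 (adjusted p = 6.83e-19). TIF4632, the second eIF4G gene, took another order: its lowest level was at 42 °C, not at 40 °C. It was at 191.1 and 169.6 CPM in WT at 30 °C, 98 and 101.3 at 40 °C, then 71.7 and 61.81 at 42 °C. In IDRm the values were 194.2 and 193, then 107.3 and 107, then 69.48 and 60.78 CPM. Against 30 °C it changed by −0.86 at 40 °C and −1.43 at 42 °C in WT, and by −0.85 and −1.57 in IDRm, with adjusted p of at most 5.34e-10. From 40 to 42 °C TIF4632 fell by 0.57 ± 0.10 in WT (adjusted p = 1.3e-05) and by 0.72 ± 0.10 in IDRm (adjusted p = 5.32e-07). Over the same step TIF4631 rose by 1.03 in WT (adjusted p = 1.12e-13) and by 0.80 in IDRm (adjusted p = 7.65e-11). The share of TIF4632 in the summed CPM per kilobase of the eIF4G genes was 21.5% and 19.5% in WT at 30 °C, 38.6% and 37.9% at 40 °C, then 17.8% and 15.9% at 42 °C. In IDRm it was 18.9% and 20.3%, then 40.1% and 39.9%, then 20.1% and 17.6%. Together both genes held 907.8 ± 11.8 CPM at 30 °C, 267.2 ± 9.73 at 40 °C and 408.8 ± 10.5 at 42 °C in WT, and 1021 ± 58, 274.6 ± 0.778 and 356.8 ± 0.0161 in IDRm.

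**Figure D3:**
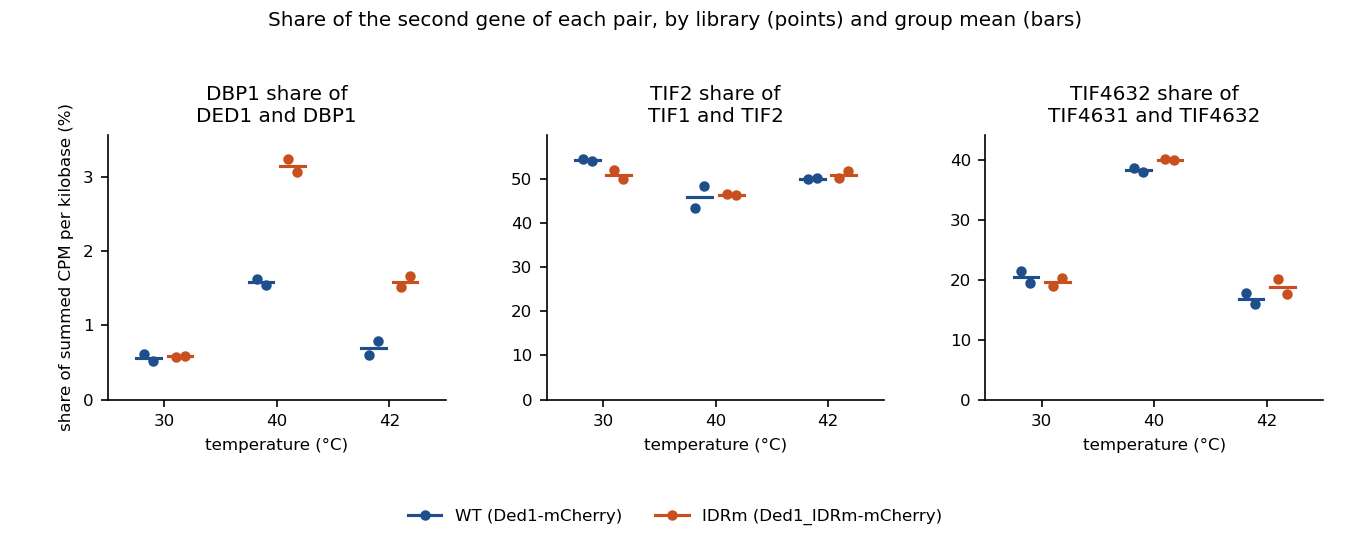
Share of DBP1, TIF2 and TIF4632 in the summed CPM per kilobase of their pair (vertical axes, percent, from 0) against temperature, with 1 point per library and a bar at the group mean. TIF4632 makes up 15.9% to 21.5% at 30 and 42 °C and 37.9% to 40.1% at 40 °C in both strains, and DBP1 stays at or below 3.24%.

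eIF4A fell at 40 °C and stood above its 30 °C level at 42 °C in WT. The sum of TIF1 and TIF2 was 430.2 ± 35.5 CPM at 30 °C, 284.5 ± 13 at 40 °C and 574.9 ± 31.1 at 42 °C, all without overlap. It changed by −0.60 ± 0.08 at 40 °C (adjusted p = 1.68e-08) and by 0.41 ± 0.07 at 42 °C (adjusted p = 1.04e-05). In IDRm the sum was 467.2 ± 7.05, 258 ± 15.1 and 520.3 ± 26.1 CPM, with a change of −0.86 ± 0.08 at 40 °C (adjusted p = 5.73e-12). At 42 °C in IDRm its change of 0.16 ± 0.07 was short of the threshold (adjusted p = 0.0551). The libraries did not overlap there, with sums of 472.2 and 462.2 CPM at 30 °C and 538.8 and 501.9 at 42 °C. In a fit of the compared libraries alone, TIF1 (0.18, adjusted p = 0.0244) and TIF2 (0.17, adjusted p = 0.0255) were each called higher at this step. As counted by the authors, TIF1 was at 207.8 and 186.9 CPM in WT at 30 °C, 156.2 and 151.9 at 40 °C, then 276.9 and 298.1 at 42 °C. TIF2 was at 247.6 and 218.2, 119.2 and 141.8, and 276 and 298.8 CPM in the same libraries. Without WT 30 °C replicate 2 the rise of TIF2 in WT at 42 °C, 0.29 with an adjusted p of 0.00298, was 0.20 with an adjusted p of 0.058. That library also had more of the heat-induced chaperone HSP26 than its partner, 114.9 against 27.72 CPM, and the part of this in the TIF2 value was not tested. In IDRm TIF1 was at 226.6 and 232, 144 and 133.1, and 269 and 242.9 CPM, and TIF2 at 245.6 and 230.3, 124.7 and 114.2, and 269.8 and 259 CPM.

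TIF3, which encodes eIF4B, a cofactor of eIF4A, fell on heating in both strains and was lower in IDRm than in WT at 40 and 42 °C. In WT it was at 534.9 and 567.3 CPM at 30 °C, 197.4 and 199.4 at 40 °C, then 334.1 and 324 at 42 °C. In IDRm it was at 618.2 and 554.7 CPM at 30 °C, 88.76 and 93.55 at 40 °C, then 131.3 and 129.5 at 42 °C. At 30 °C the strains overlapped, and at both higher temperatures every IDRm library lay below every WT library. TIF3 fell 2.77-fold in WT at 40 °C (log2 −1.47 ± 0.08, adjusted p = 5.29e-18) and 1.67-fold at 42 °C (adjusted p = 1.06e-10). The same steps in IDRm were falls of 6.43-fold (log2 −2.69 ± 0.08, adjusted p = 3.06e-24) and 4.49-fold (adjusted p = 6.63e-22). From 40 to 42 °C it rose by 0.73 in WT (adjusted p = 5.45e-10) and by 0.52 in IDRm (adjusted p = 7.77e-06).

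Of the eIF4E-binding proteins, neither was called lower at 40 °C in WT, where CDC33 fell. CAF20 was at 99.7 and 89.51 CPM in WT at 30 °C, 91.32 and 91.42 at 40 °C, then 148.6 and 131.3 at 42 °C. Its change was −0.06 at 40 °C (adjusted p = 0.558), or −0.30 by library size alone (adjusted p = 0.00698), and at 42 °C it rose by 0.56 (adjusted p = 1.98e-06). In IDRm it was at 107.3 and 102.2 CPM, then 76.77 and 76.39, then 135 and 137.4, a fall of 0.45 ± 0.10 at 40 °C (adjusted p = 9.5e-05) and a rise of 0.38 at 42 °C (adjusted p = 0.000362). EAP1 spanned 112.8 to 141.6 CPM over all 12 libraries, a smaller ratio of highest to lowest than any of the other 9 genes had. In WT its changes were 0.11 at 40 °C (adjusted p = 0.3) and −0.07 at 42 °C (adjusted p = 0.528). Without WT 30 °C replicate 1 the change at 40 °C was called (0.25, adjusted p = 0.0479), and without WT 42 °C replicate 2 so was that from 40 to 42 °C (−0.26, adjusted p = 0.0375). In IDRm EAP1 rose by 0.21 ± 0.09 at 40 °C (adjusted p = 0.0421) and by 0.23 ± 0.09 at 42 °C (adjusted p = 0.0257). Neither call held without any 1 of the 4 libraries compared, with adjusted p from 0.0715 to 0.223 at 40 °C and from 0.0636 to 0.145 at 42 °C. The direction at 40 °C turned to −0.0174 by library size alone.

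Between the strains at 30 °C, 0 of the 10 genes were called by edgeR, beside 9.58% of all genes higher in IDRm and 6.75% lower. TIF1 and TIF4631 had an unadjusted p under 0.05, and DESeq2's Wald test called 0. One gene was called without each of 3 libraries: TIF1 without WT 30 °C replicate 1 (adjusted p = 0.0423), EAP1 without WT 30 °C replicate 2 (0.0473) and TIF4631 without IDRm 30 °C replicate 2 (0.0389). At 40 °C 1 gene was higher and 3 lower in IDRm, beside 11.4% higher and 14.5% lower among all genes. At 42 °C 1 was higher and 2 lower, beside 20.4% and 20.7%. These shares are close to those of all genes at 42 °C, and at 40 °C the 3 of 10 lower stood beside 14.5%. TIF3 had the largest difference of the 10, lower in IDRm by 2.18-fold at 40 °C (log2 −1.12 ± 0.09, adjusted p = 4.67e-12) and by 2.52-fold at 42 °C (log2 −1.34 ± 0.08, adjusted p = 4.04e-15). Only 1.05% and 1.29% of all tested genes had a difference as low as that of TIF3 at these temperatures. DBP1 was higher in IDRm by 1.65-fold at 40 °C (adjusted p = 0.000505) and by 2.26-fold at 42 °C (adjusted p = 3.71e-06). DED1 was lower in IDRm at 40 °C by a log2 of −0.29 ± 0.07 (adjusted p = 0.00148), and CDC33 by −0.29 ± 0.08 (adjusted p = 0.00524). The CDC33 call was lost without WT 40 °C replicate 2 (adjusted p = 0.131), without IDRm 40 °C replicate 2 (adjusted p = 0.0589) and by DESeq2's Wald test (adjusted p = 0.0551). TIF4631 at 42 °C differed by −0.23 ± 0.07 (adjusted p = 0.00897), and without IDRm 42 °C replicate 1 the adjusted p was 0.0801. The chaperone HSP104 was also higher in IDRm, at 17410 and 17650 CPM at 42 °C against 12910 and 12890 in WT, and its part in these differences was not tested.

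**Figure D4:**
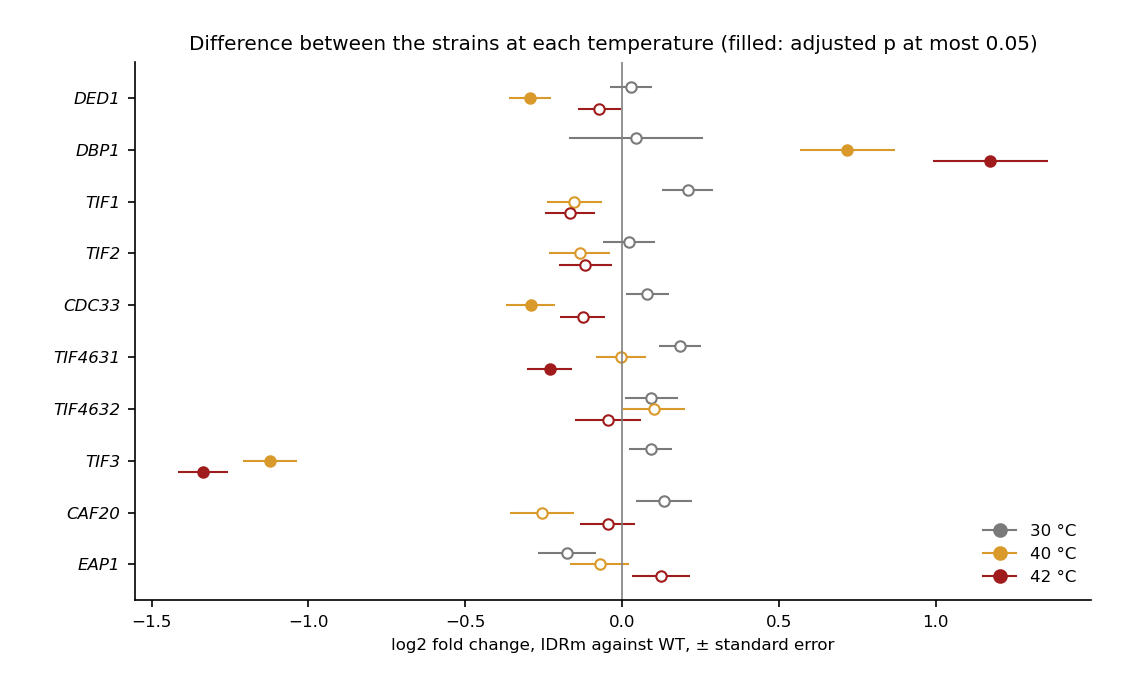
Log2 fold change of IDRm against WT (horizontal axis) for each gene at 30, 40 and 42 °C, with bars of 1 standard error and filled points at an adjusted p of at most 0.05. All 30 °C points are open and lie within 0.21 of 0, whereas TIF3 reaches −1.12 and −1.34 and DBP1 reaches 1.65-fold and 2.26-fold at the higher temperatures.

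The test of whether the strains responded differently to heat called 4 of the 10 genes for the step from 30 to 40 °C, all with a lower change in IDRm, beside 8.52% lower and 3.81% higher among all genes. TIF3 differed by −1.21 ± 0.11 (adjusted p = 1.26e-09), CDC33 by −0.37 ± 0.10 (adjusted p = 0.014), TIF1 by −0.36 ± 0.12 (adjusted p = 0.043) and DED1 by −0.32 ± 0.10 (adjusted p = 0.0225). Of these, TIF3 alone was called by DESeq2's Wald test. Over the 8 libraries compared, DED1 was no longer called on removal of any but WT 30 °C replicate 2, with adjusted p from 0.0506 to 0.118. CDC33 was lost without WT 40 °C replicate 2 (0.13), IDRm 30 °C replicate 1 (0.0845) or IDRm 40 °C replicate 2 (0.0673), all adjusted p. TIF1 was lost on removal of any library but WT 30 °C replicate 1, with adjusted p up to 0.205. With all libraries kept it was also lost with DESeq2 size factors (adjusted p = 0.0538), by library size alone (0.0517) and with no filter on low counts (0.051). Summed with TIF2 its adjusted p was 0.118. CAF20, at −0.39 ± 0.14 (adjusted p = 0.056), was called without WT 30 °C replicate 1 (adjusted p = 0.0297) and in a fit of the compared libraries alone (adjusted p = 0.043). DBP1 had a higher change in IDRm, by 0.67 ± 0.26, that was not called (adjusted p = 0.0931).

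For the step from 30 to 42 °C 3 genes had a lower and 1 a higher change in IDRm, beside 16.1% lower and 11.4% higher among all genes. TIF3 differed by −1.43 ± 0.11 (adjusted p = 3.16e-12), TIF4631 by −0.42 ± 0.10 (adjusted p = 0.00139) and TIF1 by −0.37 ± 0.11 (adjusted p = 0.0129). DBP1 differed by 1.13 ± 0.28 (adjusted p = 0.00289). For TIF4631 and TIF1 the value also holds a strain difference at 30 °C. IDRm against WT was there 0.19 for TIF4631 (adjusted p = 0.0528) and 0.21 for TIF1 (adjusted p = 0.075). At 42 °C it was −0.23 (adjusted p = 0.00897) and −0.16 (adjusted p = 0.0979). The DBP1 difference was 1.00 without replicate 1 of WT at 30 °C, and 0.80 without replicate 1 of WT at 42 °C, with adjusted p of 0.0545 and 0.0505. EAP1, at 0.30 (adjusted p = 0.0841), was called when replicate 2 of WT at 30 °C (adjusted p = 0.0185) or replicate 2 of WT at 42 °C (adjusted p = 0.0391) was removed. TIF1 was lost without IDRm 42 °C replicate 2 (adjusted p = 0.0929), and for the sum with TIF2 the adjusted p was 0.0618. For the step from 40 to 42 °C edgeR called 0 of the 10, beside 6.24% higher and 3.85% lower among all genes. DED1 and TIF4631 had an unadjusted p under 0.05 there, DESeq2's Wald test called 0, and without WT 42 °C replicate 2 the DED1 difference was 0.32 (adjusted p = 0.0181).

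Other initiation factors fell at 40 °C, as CDC33 and TIF4631 did. Of 19 initiation factors outside the 10, all were lower in WT at 40 °C, with a median log2 change of −1.39, where 39.5% of all genes were lower. From 40 to 42 °C 18 were higher and 1 lower, where 29.8% of all genes were higher. NIP1, a subunit of eIF3, changed by −2.77 ± 0.08 in WT at 40 °C (adjusted p = 5.05e-24), and TIF5, which encodes eIF5, by −2.64 ± 0.09 (adjusted p = 2.85e-22). In WT at 42 °C 16 of the 19 were lower than at 30 °C and 1 higher, with a median of −0.32, beside 33.6% lower among all genes. In IDRm 18 were lower at 40 °C, and 16 lower and 3 higher at 42 °C, with medians of −1.52 and −0.70, beside 39.9% and 36.7% lower among all genes. The change to 40 °C was lower in IDRm than in WT for 6 and higher for 0, and that to 42 °C lower for 12 and higher for 0, beside 8.52% and 16.1% lower among all genes. Between the strains 4 were higher and 0 lower in IDRm at 30 °C, 2 higher and 6 lower at 40 °C, and 1 higher and 8 lower at 42 °C. Among all genes 9.58% were higher at 30 °C, and 14.5% and 20.7% were lower at 40 and 42 °C. GCD7, a subunit of eIF2B, was lower in IDRm at 42 °C by a log2 of −2.22 ± 0.13 (adjusted p = 3e-15). PAB1, the poly(A)-binding protein, was lower by −0.95 ± 0.07 at 40 °C (adjusted p = 3.81e-12) and by −1.96 ± 0.07 at 42 °C (adjusted p = 5.63e-20). The TIF3 difference of −1.34 at 42 °C thus lay between the differences of PAB1 and of NIP1, which was −0.71 ± 0.08 (adjusted p = 5.02e-09).

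Among 6 partners of eIF4G, PAB1 included, 3 were lower and 1 higher at 40 °C in either strain, and 3 were lower and 0 higher at 42 °C in either strain. With 39.5% and 39.9% of all genes lower at 40 °C in WT and IDRm, and 33.6% and 36.7% at 42 °C, counts this small are near the share of all genes. STO1, the large subunit of the nuclear cap-binding complex, changed by −1.30 ± 0.09 in WT at 40 °C (adjusted p = 7.54e-15). SCD6, which represses translation by binding eIF4G, changed by −0.56 ± 0.12 (adjusted p = 6.44e-05). Between the strains 0 of the 6 were called at 30 °C, 1 lower at 40 °C (PAB1), and 1 lower (PAB1) and 1 higher at 42 °C. Among all genes 14.5% were lower at 40 °C, and 20.7% lower and 20.4% higher at 42 °C, so these counts too are near the background. The higher one was SBP1, another protein that binds eIF4G, at 0.30 ± 0.08 (adjusted p = 0.00497).

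The other DEAD-box helicases, relatives of Ded1 by fold and mostly factors of ribosome assembly or splicing, were mostly lower on heating. Of 22 genes, 19 were lower and 2 higher in WT at 40 °C, with a median log2 change of −1.98, beside 39.5% lower among all genes. DED1 had −0.09 and DBP1 1.38. DBP7, a factor of large-subunit assembly, changed by −4.53 ± 0.24 (adjusted p = 2.26e-13), and DBP3 by −3.94 ± 0.13 (adjusted p = 1.23e-22). In WT at 42 °C 18 were lower and 1 higher, with a median of −0.44, beside 33.6% lower among all genes. In IDRm 20 were lower and 1 higher at 40 °C, with a median of −2.66, and 18 were lower and 0 higher at 42 °C, with a median of −1.09, beside 39.9% and 36.7% lower among all genes. Between the strains 11 were higher and 1 lower in IDRm at 30 °C, beside 9.58% and 6.75% of all genes, and DBP7 led with 0.69 ± 0.13 (adjusted p = 0.000814). At 40 °C 5 were lower and 0 higher in IDRm, and at 42 °C 10 were lower and 1 higher, beside 14.5% and 20.7% lower among all genes. The change to 40 °C was lower in IDRm for 7 and higher for 0, and that to 42 °C lower for 15 and higher for 1, where 8.52% and 16.1% of all genes were lower. SUB2, a helicase of splicing and mRNA export, differed by −0.59 ± 0.07 at 40 °C (adjusted p = 1.17e-07), and DBP6 by −1.06 ± 0.14 at 42 °C (adjusted p = 3.19e-07).

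Over the 12 libraries the log2 levels of the 10 genes ran along different lines. As a description over libraries that share 6 groups, Pearson's r was 0.958 between CDC33 and TIF4631 and 0.924 between TIF1 and CAF20. It was −0.955 between DBP1 and TIF3, the genes with the largest strain differences, and 0.249 between DED1 and TIF4632. Among the 3967 genes that averaged 20 CPM or more, those most like DED1 were RPS0A at 0.936, EMC3 at 0.928, THR1 at 0.927, and RPS2 and STU1 at 0.92. RPS0A and RPS2 encode proteins of the small ribosomal subunit, and RPS0A is uncertain since it has a close copy. Most like DBP1 were AIP1 at 0.988, RIB1 at 0.986, PGC1 at 0.985, PMP3 at 0.983 and KGD4 at 0.98. AIP1 encodes a partner of cofilin in actin turnover, and RIB1 an enzyme of riboflavin synthesis. Most like CAF20 were TEF2 at 0.983, RPL36B at 0.948, NMT1 at 0.945, FRE1 at 0.944 and ERG27 at 0.943. TEF2 encodes elongation factor eEF1A, and both TEF2 and RPL36B have near-identical copies and are uncertain. By Spearman's rho 0 of the 5 genes named for DED1, 1 for DBP1 and 2 for CAF20 stayed among the first 5, so the order of likeness depends on the measure.

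The sequence before the start codon was read because Ded1 acts on the leader. The 12 bases before the start codon and the first 9 coding bases, with the start codon in capitals, are shown for the paralog pairs whose heat responses differ and for the genes at the extremes:
DED1: gcatttcatattATGgctgaa
DBP1: ttacaagaaaaaATGgcagac
TIF4631: cctattacaataATGacagac
TIF4632: attgtaggcactATGactgac
TIF3: aaaggacacatcATGgctcca
CAF20: taatttcacgacATGatcaag
An A at the third base before the start codon, the base most typical of yeast genes, was present in 9 of the 10 genes and absent in CAF20, against 60.9% of 6002 genes. The GC content of the 100 bases before the start codon was 26% in DBP1, and 4.98% of 6001 genes had a lower one. It was 30% to 36% in the other 9 genes, around the median of 34%. The stress response element CCCCT, which Msn2 and Msn4 bind, was searched on both strands of the 250 bases before the start codon. It was present in DBP1 alone of the 10, once, and in 18.8% of all 6001 windows. The match ends 25 bases before the start codon, and the 25 bases that hold it, at chrXVI:326280-326304 on the reverse strand, read with the match in capitals:
DBP1: ttaagaaaaaCCCCTttgagtgaaa
A pair of heat shock factor units, GAANNTTC or TTCNNGAA, which read the same on both strands, was present once each in TIF4631, TIF4632 and EAP1, ending 212, 44 and 90 bases before the start codon. These are 3 of the 10 genes, where 19.3% of all windows held one. None of these matches is shown by these data to be bound.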

How the data were processed

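Footprint counts per gene were used as deposited by the authors. Per the submitters' processing notes, bcl2fastq 2.17.1.14, cutadapt 1.17, Bowtie2 2.2.6, STAR 2.5.2b and build R64 were used. Their roles, the strand setting and the counting rule are not stated by the labels or notes at hand. That rule decides whether reads shared by TIF1 and TIF2 were counted and how they were split. The members and gene lists were chosen with earlier results of these data known. Counts of 6697 genes in 12 libraries were fitted with edgeR 4.0.16 in R 4.3.3 (TMM scaling, a mean for each group, robust quasi-likelihood F test). Genes were kept at a minimum count of 10 and a minimum total of 15. The residual degrees of freedom were 6. Standard errors are the log2 change over the square root of F and are approximate. The 683 identifiers outside the annotation held at most 0.112% of counts. Replicate libraries had correlations of log2 levels of 0.9894 to 0.9942, lowest in WT at 30 °C. The chi-square per degree of freedom of replicate counts, which also grows with depth, was 5.48 in WT at 30 °C and 5.06 in WT at 42 °C. In the other groups it was 1.45 to 2.39. The WT libraries at 30 °C also differed in the heat-induced chaperone SSA4, at 157.6 and 483.8 CPM. The p-values rest on the spread between libraries from duplicate pre-cultures, each main culture having been split over the temperatures. The main fit did not pair the libraries of a culture, since the labels do not mark them. Its estimate of spread also borrowed from other genes, with a median of 25.5 prior degrees of freedom beside the 6 residual ones. The 10 genes were all named. From each list, up to 3 called genes with the largest change per comparison qualified for naming, and some of these are described. For DED1, DBP1 and CAF20 the 5 genes highest in Pearson's r of log2 CPM (prior count 2) were named. Sequences were read from the R64 RefSeq genome with Biopython 1.88. Alternatives were DESeq2 size factors, library size alone, no filter, only the compared libraries, DESeq2 1.42.0, replicate blocks, TIF1 and TIF2 summed, and each library left out.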

Additional observations from a re-analysis of the deposited data

Results flagged for a closer look

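The genes below had a change on heating that differed between the strains by a test of that difference itself, the interaction term of the edgeR fit.

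From 30 to 40 °C, the change in IDRm minus that in WT was −1.21 on the log2 scale for TIF3 (adjusted p = 1.26e-09), −0.37 for CDC33 (adjusted p = 0.014), −0.36 for TIF1 (adjusted p = 0.043) and −0.32 for DED1 (adjusted p = 0.0225). From 30 to 42 °C, it was −1.43 for TIF3 (adjusted p = 3.16e-12), −0.42 for TIF4631 (adjusted p = 0.00139), −0.37 for TIF1 (adjusted p = 0.0129) and 1.13 for DBP1 (adjusted p = 0.00289). Of the calls from 30 to 40 °C, those of TIF1, DED1 and CDC33 were each lost by DESeq2's Wald test (adjusted p of 0.12, 0.0821 and 0.0576) and on leaving out single libraries. Adjusted p without 1 library reached 0.205 for TIF1, 0.118 for DED1 and 0.13 for CDC33. TIF1 was also lost with DESeq2 size factors (0.0538), library size alone (0.0517) and no filter (0.051), and summed with TIF2 (0.118). From 30 to 42 °C, adjusted p without 1 library reached 0.0929 for TIF1 and 0.0545 for DBP1. Both steps share the 30 °C libraries. TIF3 was lower in both IDRm libraries than in both WT libraries at either temperature. TIF1 cannot be separated from TIF2 by most footprints.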

How the results depend on the processing

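Of 1415 values of the 10 genes recomputed under other settings, 1337 kept their side of the threshold with no called value changing sign. In 44 a call was lost and in 33 gained, 41 of these on leaving out 1 library, and 1 DESeq2 adjusted p was not given. One called value turned: EAP1 in IDRm from 30 to 40 °C was −0.0174 by library size alone (adjusted p = 0.867), which lowers the median gene by 0.23 there. No call on TIF3 was gained or lost. Between the strains at 30 °C the count of called genes was 2 with DESeq2 size factors, and 0 to 1 with each library left out. Between the strains at 42 °C it was 7 by library size alone, which moves the median gene by −0.11. For the difference of responses from 30 to 40 °C it was 1 by DESeq2's Wald test, and 1 to 4 with each library left out. From 40 to 42 °C it was 1 by library size alone, and 0 to 1 with each library left out. The cause of these shifts was not tested.

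The labels do not say that a replicate number marks a culture. Same-numbered libraries of a strain deviated together with correlations of −0.0117 to 0.0219, and those of both strains at a temperature with 0.0254 to 0.154. With the replicate number as a block, 1 further call was made: CAF20 from 30 to 40 °C, with a difference of responses of −0.40 (adjusted p = 0.036). This took the count there from 4 to 5, and no other call of the 10 genes changed. DBP1 is limited by depth, with at most 147 counts in a library.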
